A study of Mus musculus with 12 samples.

Results

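Mouse skin injected with RNAdjuvant was followed over the interval between 1.5 h and 6 h in 6 of the 12 arrays of the series: the 3 skin samples taken at 6 h against the 3 taken at 1.5 h, chosen by their titles. All 6 came from female Balb/c mice injected intradermally with RNAdjuvant at a labelled dose of 25 mg, a unit that was not checked here. RNAdjuvant is a complex of non-coding RNA with a positively charged peptide, used to strengthen vaccines. The other 6 samples, 3 from untreated female Balb/c mice and 3 taken at 24 h, give the levels on either side of the interval. The controls had no injection, and an effect of the needle or carrier was not analysed here. The labels call the samples of a group biological replicates. They do not say whether biopsies of different times came from the same animals, nor do they give the body site or the clock time of collection.

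RNA inside endosomes or the cytosol is sensed by Toll-like receptors and by RNA helicases, which switch on the genes of interferon beta and interferon alpha and of inflammatory cytokines. Secreted interferon binds receptors on neighbouring cells and activates transcription factors, among them STAT2 and IRF9, which bind the interferon-stimulated response element in the promoters of antiviral genes. In skin, keratinocytes, fibroblasts, endothelial cells and resident leukocytes all respond in this way, and chemokines made by them draw leukocytes from the blood.

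Expression was measured on Affymetrix Mouse Gene 1.0 arrays, and all levels below are log2 intensities after RMA (robust multi-array average) as deposited, so a difference of 1 is 2-fold. Array medians were 5.67 to 5.76 at 6 h and 5.53 to 5.60 at 1.5 h. Over all genes, arrays correlated at r = 0.988 to 0.992 within 6 h (3 pairs), 0.988 to 0.991 within 1.5 h (3 pairs) and 0.968 to 0.979 across the 2 times (9 pairs). The tissue label held in every library: the basal keratin gene Krt5 stood at 11.94 to 12.07 at 6 h and 11.91 to 12.15 at 1.5 h. The dermal collagen gene Col1a1 stood at 10.12 to 10.93 at 6 h and 9.67 to 10.12 at 1.5 h. In such bulk tissue, fewer cells of a type and less RNA per cell cannot be told apart.

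Libraries differed in marker genes of other tissues, and the source of that RNA was not tested. Glycam1, made by the high endothelial vessels of lymph nodes, was at 10.88, 4.01 and 4.24 at 6 h and 11.38, 3.93 and 4.46 at 1.5 h, so replicate 1 of each time stood far above the others. The B cell gene Cd79b was likewise high in these 2 libraries, at 7.29, 4.96 and 5.12 at 6 h and 7.80, 5.14 and 5.12 at 1.5 h. Over the list, the mean level of the 18 measured B cell and lymph node genes ranged from 4.91 to 6.40 at 6 h and from 4.86 to 6.67 at 1.5 h. Genes of slow muscle fibres set 1.5 h replicates 1 and 2 apart. Myl2, a myosin light chain, was at 4.66, 4.60 and 6.88 at 6 h and 10.56, 10.43 and 5.38 at 1.5 h. Genes of glandular epithelium were high in all 3 samples at 1.5 h and in 6 h replicate 1, but not in 6 h replicates 2 and 3. At 1.5 h, 4 of the 18 measured genes of this list were called higher than in untreated skin, where 0.612% of all genes were. Krt18, a keratin of simple epithelia, was at 9.14, 5.25 and 4.93 at 6 h and 9.81, 8.23 and 8.75 at 1.5 h. Csn3, a casein gene, was at 7.50, 3.57 and 3.24 at 6 h and 7.70, 6.98 and 6.51 at 1.5 h. Results are therefore also given without replicate 1 of both times, called the Glycam1-high libraries, and without each library in turn.

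**Figure D1:**
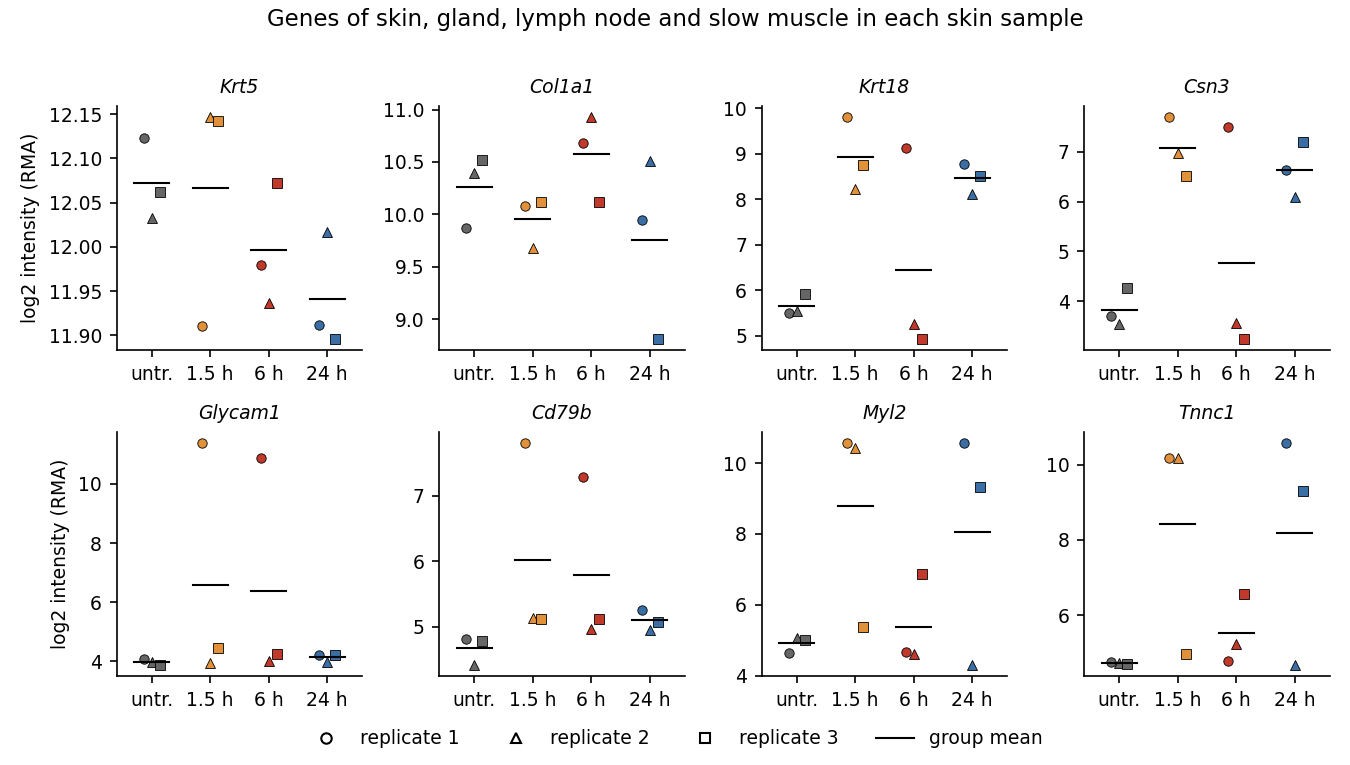
Log2 intensity (y axis) of marker genes in each of the 12 samples, grouped by untreated skin and time after injection (x axis); symbols are replicates 1 to 3 and lines group means. Krt5 and Col1a1 are high throughout, Glycam1 is high in replicate 1 of 1.5 h and 6 h, and Krt18 and Csn3 are low at 6 h in replicates 2 and 3.

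At 6 h, 1090 of 19938 genes (5.47%) were higher than at 1.5 h and 1556 (7.8%) were lower, at an adjusted p under 0.05 (limma with Benjamini-Hochberg adjustment, n = 3 against 3). The rises were the larger changes: 311 genes (1.56%) rose at least 2-fold and 84 (0.421%) fell at least 2-fold. The 3 values at 6 h lay outside the range of the 3 at 1.5 h in 33% of all genes, so a lack of overlap alone is common. The median difference over all genes was -0.03. Leaving out 6 h replicate 2 left 560 higher and 389 lower genes, and leaving out 1.5 h replicate 2 left 632 and 509. Centring the arrays on their medians gave 760 higher and 3849 lower genes and moved the median difference to -0.17, and cyclic loess gave 1142 and 936, so the balance between modest rises and falls depended on the scaling. Without both Glycam1-high libraries, 722 genes were higher and 710 lower, of which 338 and 90 changed at least 2-fold. Other single libraries that moved the lower count by more than 1.5 times were 6 h replicate 3 (1029 lower without it) and 1.5 h replicate 1 (771 lower without it). The gene groups below are lists of genes by role. Of their counts of 4 or more called members, 21 of 34 stayed within 1.5 times without each of the 6 libraries, and the others are given, where described, with the libraries that moved them. Of the counts of 1 to 3, 26 of 48 went to 0 without at least 1 library, so small counts are descriptions. Every list count below is to be read against the shares of all genes, 5.47% higher and 7.8% lower. Counts near these shares are not results about a list.

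**Figure D2:**
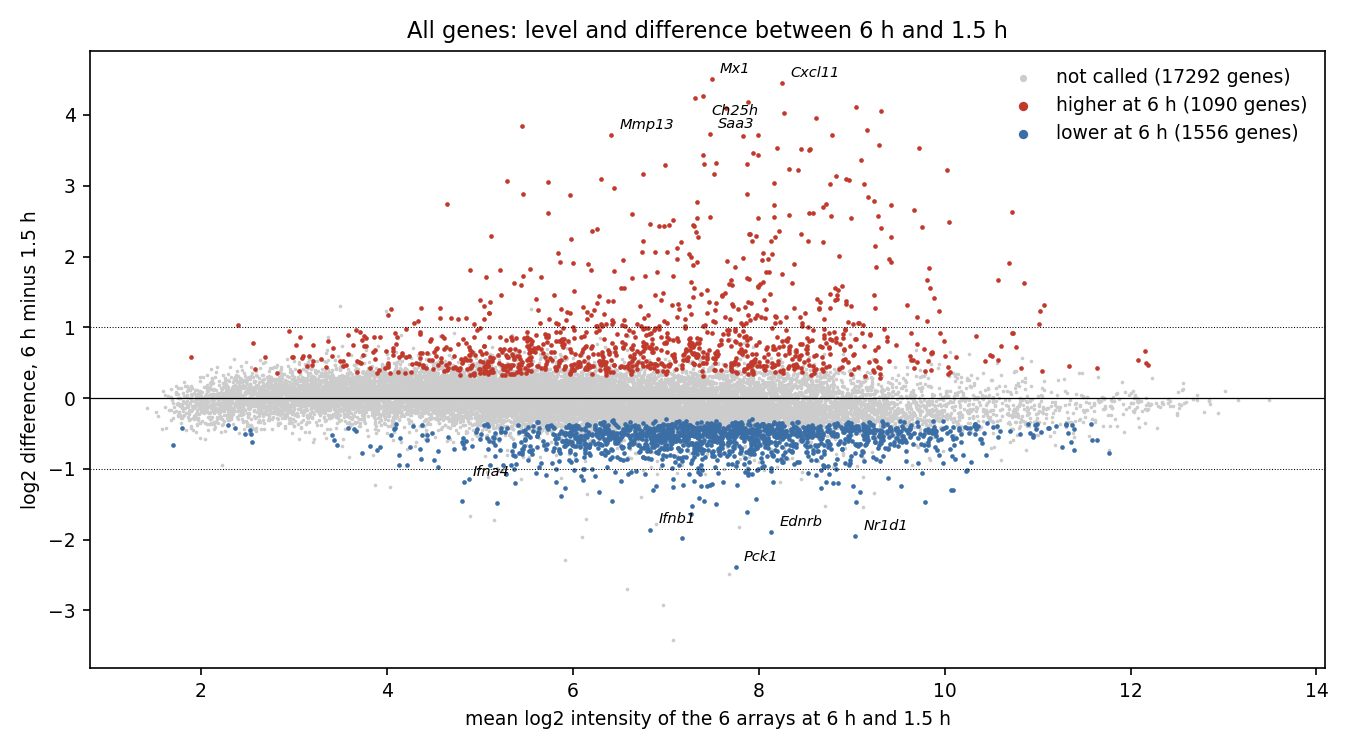
Log2 difference, 6 h minus 1.5 h (y axis), against the mean log2 intensity of the 6 arrays (x axis) for all 19938 genes; dotted lines mark 2-fold. Red points are the 1090 genes called higher, blue points the 1556 called lower, and the points beyond 2-fold lie mostly on the higher side.

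The interferon beta gene fell over the interval. Ifnb1, which encodes interferon beta, was at 5.89, 5.96 and 5.87 at 6 h, against 8.10, 7.85 and 7.34 at 1.5 h. All 6 h samples lay below all 1.5 h samples, and Ifnb1 fell by 1.86 on the log2 scale (SE 0.16, adjusted p = 5.91e-06). It still stood above untreated skin at 6 h, by 2.48 (adjusted p = 2.82e-07), where the untreated samples were at 3.32, 3.59 and 3.35. Ifna4, an interferon alpha gene, was at 4.06, 4.62 and 4.04 at 6 h, against 6.31, 5.40 and 4.58 at 1.5 h. Here 1 sample of 6 h lay inside the range of 1.5 h, and the difference of -1.19 (SE 0.31, adjusted p = 0.0247) rested on few libraries. Ifna4 was not called without 6 h replicate 1 or 3, 1.5 h replicate 1 or 2 or both Glycam1-high libraries or in a fit of only the 6 arrays, with values raised to a floor of 5 or without moderation of the variance (adjusted p 0.0543 to 0.223). With the floor of 5 its difference was -0.57. Of the 15 measured interferon genes, 1 was called higher and 2 lower, with a median difference of 0.01. The called rise was that of Ifng, the type II interferon of lymphocytes, at 0.64 (adjusted p = 0.0256). Ifng was not called without 6 h replicate 2, 1.5 h replicate 1, 2 or 3 or both Glycam1-high libraries or in a fit of only the 6 arrays, after quantile normalization, after cyclic loess, with values raised to a floor of 5 or without moderation of the variance (adjusted p 0.0503 to 0.435). With the floor of 5 its difference was only 0.03, so nearly all of it lay in values below that floor.

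Of the 13 measured receptor and JAK-STAT genes, 5 rose and 2 fell (median 0.14). Stat2, a transcription factor of type I interferon signalling, was at 9.97, 10.002 and 9.58 at 6 h, against 7.45, 7.13 and 7.13 at 1.5 h, a difference of 2.61 (SE 0.15, adjusted p = 1.81e-07). Irf9, whose product binds DNA together with STAT2, rose by 1.14 and the kinase gene Jak2 by 0.96. The count of rises was 3 without 6 h replicate 2, 1.5 h replicate 3 or both Glycam1-high libraries. Ifngr2, a chain of the interferon gamma receptor, fell (-0.61). Ifnar1 and Ifnar2, the chains of the type I receptor, differed by -0.12 (adjusted p = 0.478) and 0.15 (adjusted p = 0.523).

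Of the 9 measured genes of the interferon regulatory factor list, 4 rose and 1 fell. The list also holds Irf2bp1 and Irf2bp2, whose products bind IRF2. Irf7, which drives the interferon alpha genes, was at 10.40, 9.82 and 10.07 at 6 h, against 7.96, 7.11 and 6.98 at 1.5 h. The groups did not overlap, and the difference was 2.74 (SE 0.23, adjusted p = 3.28e-06). Irf1 (1.33), Irf8 (1.09) and Irf2 (1.03) also rose. Irf4, a factor of lymphocytes and dendritic cells, fell (-0.83). Irf4 was not called without 6 h replicate 2 (adjusted p = 0.0549). Irf3, the factor that is activated without new synthesis, differed by 0.04 (adjusted p = 0.83).

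Sensors of RNA and DNA were among the genes that rose: 15 of 24 measured sensors and adaptors were higher at 6 h and 0 lower, with a median of 0.92. Ddx58, which encodes the helicase RIG-I, was at 10.16, 10.15 and 9.80 at 6 h, against 7.77, 7.16 and 7.11 at 1.5 h (2.69, adjusted p = 2.50e-07). Ifih1, which encodes MDA5, was at 10.58, 10.68 and 10.52 at 6 h, against 7.98, 7.67 and 7.62 at 1.5 h (2.84, adjusted p = 7.46e-09). In both genes every 6 h sample lay above every 1.5 h sample. Zbp1, a sensor of left-handed nucleic acid, rose by 3.02, and Eif2ak2, the kinase PKR, by 2.56. Among the endosomal receptors, Tlr3 (2.29) and Tlr9 (1.31) rose, whereas Tlr7, the receptor of single-stranded RNA, differed by 0.12 (SE 0.24, adjusted p = 0.77). Sting1, the adaptor of the DNA sensor cGAS, rose by 1.07 and the kinase gene Tbk1 by 0.77. Of the 10 measured Toll-like receptors and co-receptors of the cell surface, 1 rose and 2 fell (median -0.03), where 5.47% of all genes rose and 7.8% fell. Cd14, the co-receptor for bacterial lipopolysaccharide, was 1 of the 2 that fell (-0.85). Cd14 was not called without 6 h replicate 2 or with values raised to a floor of 5 or without moderation of the variance (adjusted p 0.052 to 0.0631).

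Antiviral effectors were among the largest rises. Mx1, a gene of the Mx GTPase family, was at 9.64, 10.05 and 9.56 at 6 h, against 6.14, 5.22 and 4.37 at 1.5 h. It rose by 4.51 (SE 0.33, adjusted p = 1.11e-06), the largest rise among the named genes, and the untreated samples were at 4.62, 4.98 and 4.89. Rsad2, which encodes viperin, was at 11.21, 11.33 and 11.49 at 6 h, against 7.92, 7.30 and 6.66 at 1.5 h (4.05, adjusted p = 2.73e-07). The 6 h samples of both genes lay apart from those of 1.5 h, where replicate 1 was the highest in both. In all, 19 of 22 measured genes of this group rose and 0 fell, with a median of 2.25. They include Ifit2 (4.12), Cmpk2 (4.03), Mx2 (3.71) and Ifit3 (3.54). The median of the group above the untreated mean was 2.50, 2.39 and 2.13 in the 6 h samples, against 0.54, 0.21 and 0.16 in the 1.5 h samples. At 1.5 h, 5 of these genes were called higher than in untreated skin, where 0.612% of all genes were, and Rsad2 was among them (2.02, adjusted p = 0.00206).

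**Figure D3:**
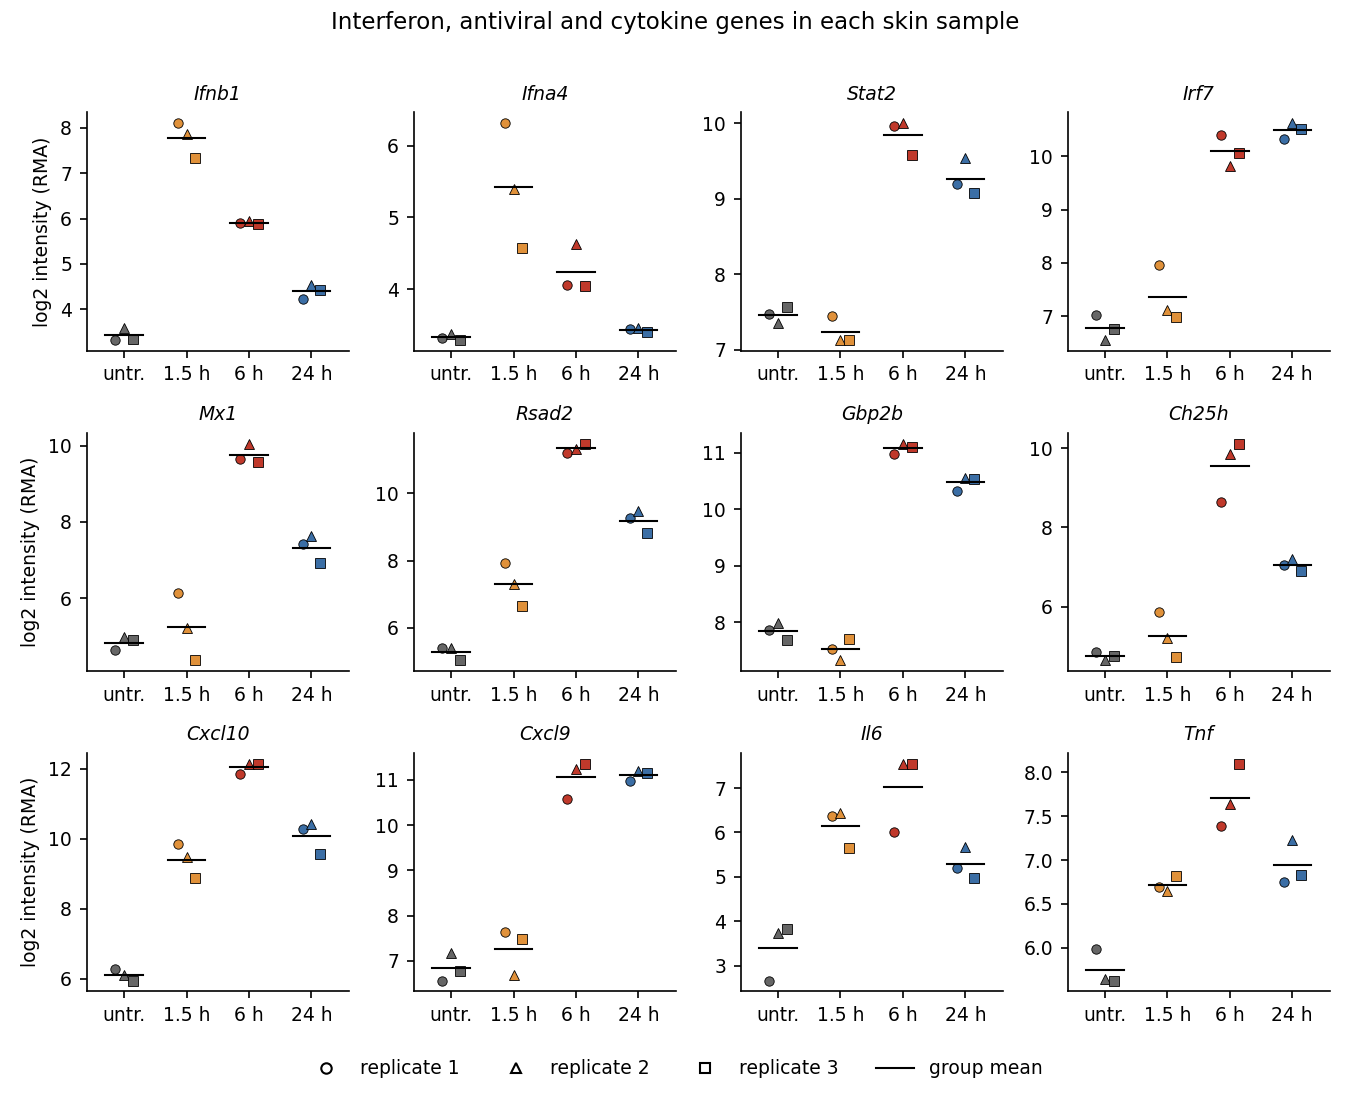
Log2 intensity (y axis) of interferon, signalling, antiviral and cytokine genes in each sample, by untreated skin and time after injection (x axis); symbols are replicates 1 to 3 and lines group means. Ifnb1 and Ifna4 are highest at 1.5 h, Mx1, Rsad2, Ch25h and Cxcl10 at 6 h, and Cxcl9 is about as high at 24 h as at 6 h.

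Of the 12 measured genes of the 2′-5′ oligoadenylate synthetase and RNase L list, 6 rose and 1 fell (median 1.66). Some of these synthetases make the activator of RNase L, and the list also holds the phosphodiesterase gene Pde12. Oasl2 (3.08), Oas1b (3.05), Oas2 (2.88) and Oas3 (2.76) led the rises. All 10 measured guanylate-binding and immunity-related GTPases rose, with a median of 3.43, the highest of the lists described. Gbp2b, also known as Gbp1, was at 10.98, 11.17 and 11.11 at 6 h, against 7.52, 7.32 and 7.70 at 1.5 h (3.57, SE 0.12, adjusted p = 3.86e-09). The 1.5 h samples overlapped the untreated samples, which were at 7.85, 7.99 and 7.67. Gbp4 (3.96), Gbp5 (3.72), Gbp3 (3.53) and Iigp1 (3.36) rose as well. All 8 measured Schlafens, regulators of lymphoid growth and of tRNA, rose (median 2.14), with Slfn4 at 9.78, 10.37 and 9.80 at 6 h and 6.56, 5.62 and 5.21 at 1.5 h (4.19). Of the 14 measured genes of ISG15 conjugation and ADP-ribosylation, 13 rose (median 2.14). Herc6, the mouse ISG15 ligase, rose by 4.10 and Usp18, which removes ISG15 and damps the receptor, by 3.71. No count in these 4 lists of rises moved by more than 1.5 times without any single library or under another scaling.

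Promoter stretches of interferon, antiviral, chemokine and clock genes are shown so that the known elements of these classes can be read in the letters. The windows run from 220 to 101 bases before the gene start, 5′ to 3′ on the gene's strand (RefSeq, GRCm38.p6). Capitals mark the core of the interferon-stimulated response element (GAAA and GAAA with any 2 bases between them), an NF-kB form (GGGA and TTCC with any 2 bases between them) or the E-box of clock factors (CACGTG), each searched on both strands. Capital runs do not overlap in these windows.
Ifnb1 (chr4:88522895-88523014, minus strand): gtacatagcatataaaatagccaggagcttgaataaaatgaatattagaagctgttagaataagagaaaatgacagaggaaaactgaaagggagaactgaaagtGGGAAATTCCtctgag
Ifna4 (chr4:88841596-88841715, plus strand): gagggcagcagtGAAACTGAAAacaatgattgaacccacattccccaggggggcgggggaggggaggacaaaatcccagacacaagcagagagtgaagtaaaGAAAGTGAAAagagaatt
Rsad2 (chr12:26456553-26456672, minus strand): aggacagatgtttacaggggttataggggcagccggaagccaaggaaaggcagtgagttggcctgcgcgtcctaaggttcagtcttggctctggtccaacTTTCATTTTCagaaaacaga
Ifit3 (chr19:34583309-34583428, plus strand): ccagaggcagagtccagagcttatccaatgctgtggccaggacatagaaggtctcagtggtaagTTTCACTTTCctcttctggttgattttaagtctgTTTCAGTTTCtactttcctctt
Gbp2b (chr3:142594627-142594746, plus strand): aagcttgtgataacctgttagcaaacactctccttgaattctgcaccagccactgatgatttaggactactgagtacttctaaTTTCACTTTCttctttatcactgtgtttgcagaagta
Cxcl10 (chr5:92348990-92349109, minus strand): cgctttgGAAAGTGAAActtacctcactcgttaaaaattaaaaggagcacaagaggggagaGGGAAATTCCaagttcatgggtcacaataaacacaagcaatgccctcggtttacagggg
Per1 (chr11:69098729-69098848, plus strand): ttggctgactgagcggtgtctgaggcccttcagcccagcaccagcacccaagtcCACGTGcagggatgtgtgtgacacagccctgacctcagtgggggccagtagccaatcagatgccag
Tef (chr15:81802453-81802572, plus strand): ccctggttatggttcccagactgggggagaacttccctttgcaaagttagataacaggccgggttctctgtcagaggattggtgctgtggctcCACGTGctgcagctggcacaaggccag

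Within 250 bases before the gene start, the response element core was present in 48 of 218 genes that rose at least 2-fold and had a promoter sequence (22.0%), and in 3 of 60 that fell at least 2-fold (5.0%). Over all 15563 genes with a sequence the share was 2.92%. Over the antiviral lists as 1 set it was 39.1% (18 of 46). Ifnb1, which fell, holds the NF-kB form at 116 to 107 bases before its start, as printed. Ifna4, which also fell, holds response element cores at 208 to 199 and 118 to 109 bases before its start. Akr1c14, another fallen gene, holds the core too. Among the largest named rises with a promoter sequence, Rsad2, Ifi213, Saa3, Gbp5, Mmp13, Gbp2b, Ifit3 and Gbp3 hold the core. Ch25h, Ifi209, Slfn4, Ifit2, Herc6, Cmpk2 and Cxcl9 lack it. The windows printed were all of genes holding an element. Cxcl10, called higher than in untreated skin at both times, holds both a response element core and an NF-kB form. The NF-kB form was present in 3.67% of the genes that rose at least 2-fold and in 1.12% of all. Such matches describe letters and are not binding sites.

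Class I antigen presentation serves CD8 T cells. Of the 16 measured class I and immunoproteasome genes, 13 rose and 0 fell, with a median of 0.81. Tap1, a peptide transporter, was at 9.70, 9.45 and 9.59 at 6 h, against 8.07, 8.002 and 8.27 at 1.5 h, without overlap (1.46, adjusted p = 1.43e-05). H2-T24 (2.28), a class I gene of the H2 complex whose close copies can share probes, Nlrc5, the class I transactivator (1.56), and the proteasome gene Psmb10 (1.45) rose too. None of the 9 measured class II genes was called in either direction in this limma fit (median 0.05), and 2 of them had an unadjusted p under 0.05, where 29.9% of all genes did.

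Chemokines of 2 classes rose. Among those that bind CXCR3 on T and natural killer cells, Cxcl10 was at 11.85, 12.12 and 12.14 at 6 h, against 9.85, 9.48 and 8.88 at 1.5 h. It rose by 2.64 (SE 0.24, adjusted p = 8.33e-06) and at 1.5 h already stood 3.29 above untreated skin (adjusted p = 2.79e-05). Cxcl9 was at 10.57, 11.24 and 11.36 at 6 h, against 7.64, 6.68 and 7.49 at 1.5 h (3.79, adjusted p = 4.16e-07), and its 1.5 h samples overlapped the untreated ones. Cxcl11 was at 9.78, 10.68 and 10.96 at 6 h, against 5.93, 6.14 and 6.00 at 1.5 h (4.45, adjusted p = 4.02e-08). In all 3 genes the 6 h samples lay above the 1.5 h samples. Of the 16 measured chemokines for lymphocytes and dendritic cells, 7 rose and 0 fell (median 0.47), among them Ccl5 (2.42) and Ccl19, a ligand of CCR7 (1.39). Ccl19 was not called without 6 h replicate 2 or 1.5 h replicate 2 or in a fit of only the 6 arrays, with values raised to a floor of 5 or without moderation of the variance (adjusted p 0.0502 to 0.0814).

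Of the 17 chemokines for neutrophils and monocytes, 6 rose and 2 fell (median 0.14). Ccl2, which draws monocytes, was at 10.69, 11.70 and 11.84 at 6 h, against 9.88, 9.67 and 9.67 at 1.5 h (1.67, adjusted p = 4.63e-04). The monocyte chemokines Ccl12 (3.23) and Ccl7 (1.63) rose, as did Ccl3 (1.92) and Ccl4 (2.15). The neutrophil chemokine Cxcl2 rose by 1.37. Cxcl2 was not called without 6 h replicate 1, 1.5 h replicate 1 or 2 or both Glycam1-high libraries or with values raised to a floor of 5 or without moderation of the variance (adjusted p 0.0513 to 0.132). The neutrophil chemokines Cxcl1 and Cxcl5 differed by 0.14 (adjusted p = 0.765) and 0.27 (adjusted p = 0.286). Ccl6 (-1.03) and the eosinophil chemokine Ccl24 (-0.98) fell. Ccl6 was not called without 6 h replicate 2 or 3 or 1.5 h replicate 1 or 2 or with values raised to a floor of 5 or without moderation of the variance (adjusted p 0.055 to 0.123).

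Among cytokine genes, 7 of 29 measured inflammatory cytokines were called higher and 1 lower (median 0.10). Tnf was at 7.39, 7.63 and 8.09 at 6 h, against 6.69, 6.64 and 6.82 at 1.5 h, without overlap (0.99, SE 0.18, adjusted p = 0.00365). Il6 was at 6.00, 7.55 and 7.54 at 6 h, against 6.36, 6.44 and 5.66 at 1.5 h. Replicate 1 of 6 h lay inside the 1.5 h range, and the difference of 0.87 (SE 0.40) did not pass the test (adjusted p = 0.162). Without 6 h replicate 1 Il6 was called higher (1.39, adjusted p = 0.0195), and without both Glycam1-high libraries too (1.49, adjusted p = 0.0305). Il15, which sustains natural killer cells, rose by 1.99. The inhibitory cytokine Il10 rose by 1.82 and Il27 by 1.04. Il1b, the main pyrogenic cytokine of myeloid cells, rose by 0.66. Il1b was not called without 6 h replicate 1, 2 or 3 or 1.5 h replicate 2 or 3 or in a fit of only the 6 arrays, with arrays centred on their median, with values raised to a floor of 5 or without moderation of the variance (adjusted p 0.0522 to 0.139). Of the 23 cytokine receptors and decoys, 5 rose and 1 fell (median 0.28). They include Il18bp, which neutralises interleukin 18 (1.58), Il10ra (1.48) and Il15ra (1.27). The count of rises was 8 after cyclic loess. In the TNF superfamily, 5 of 20 genes rose and 1 fell (median 0.13), led by the death ligand Tnfsf10 (3.29) and by Cd40 (2.44). The rises numbered 3 without 6 h replicate 2 or 3 or 1.5 h replicate 2 or 3 or with arrays centred on their median, after quantile normalization or after cyclic loess.

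Immediate early genes, which respond to a stimulus within minutes, moved in both directions. Of 40 measured, 4 rose and 7 fell (median -0.10). Fosb was at 5.93, 6.51 and 7.13 at 6 h, against 7.94, 8.14 and 8.07 at 1.5 h, and Nr4a1 at 6.96, 7.11 and 7.70 at 6 h, against 8.84, 8.99 and 8.21 at 1.5 h. In both genes every 6 h sample lay below every 1.5 h sample. Fosb fell by 1.53 (SE 0.23, adjusted p = 0.00112) and Nr4a1 by 1.42 (SE 0.26, adjusted p = 0.00424). Fos and Egr1 differed by -0.04 (adjusted p = 0.941) and -0.10 (adjusted p = 0.791). Ptgs2, which encodes cyclooxygenase 2, rose by 1.48 and the stress factor gene Atf3 by 0.98. Atf3 was not called without 6 h replicate 2 or with values raised to a floor of 5 or without moderation of the variance (adjusted p 0.0515 to 0.0661). The falls numbered 3 without both Glycam1-high libraries and 11 with arrays centred on their median, and the rises numbered 1 without 6 h replicate 2 and 2 without 6 h replicate 3 or 1.5 h replicate 2 or with arrays centred on their median.

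Targets and inhibitors of NF-kB rose in 9 of 22 measured genes (median 0.46) and none was called lower. Tnfaip3, the deubiquitinase A20, was at 7.81, 8.55 and 8.55 at 6 h, against 7.44, 7.35 and 7.30 at 1.5 h (0.94, adjusted p = 0.00831). Cflar (0.86) and Birc3 (0.79), which block death signalling, rose. Nfkbia, the inhibitor that is remade within minutes of activation, differed by 0.16 (SE 0.19, adjusted p = 0.608). The count of rises was 4 without 6 h replicate 2, 5 without 6 h replicate 3 or 1.5 h replicate 2 or 3 and 14 without 6 h replicate 1. Of 18 SOCS genes and other signalling inhibitors, 2 rose and 1 fell (median -0.01), where 5.47% of all genes rose and 7.8% fell. Socs1, an inhibitor of JAK kinases, rose by 0.58, and Socs3 differed by 0.30 (adjusted p = 0.379), but was called higher without 6 h replicate 1 (0.60, adjusted p = 0.0398). Socs1 was not called without 6 h replicate 2 (adjusted p = 0.0505).

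Saa3, the serum amyloid A made in inflamed tissue, was at 8.84, 9.28 and 9.91 at 6 h, against 5.56, 5.46 and 5.81 at 1.5 h (3.73, SE 0.23, adjusted p = 2.50e-07). The groups were far apart. Of 20 acute phase genes, 6 rose and 2 fell (median 0.18), among them Timp1, an inhibitor of matrix proteases (2.05). Mmp13, a collagenase, was at 8.30, 8.01 and 8.50 at 6 h, against 4.56, 4.67 and 4.42 at 1.5 h. It rose by 3.72 (SE 0.26, adjusted p = 7.18e-07), and its 1.5 h samples lay below the untreated ones, which were at 6.29, 6.22 and 5.25. Mmp13 was thus 1 of the 1.59% of genes called lower than in untreated skin at 1.5 h and of the 3.38% called higher at 6 h.

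Several enzymes that make signalling metabolites were among the rises. Ch25h, which makes the antiviral oxysterol 25-hydroxycholesterol, was at 8.65, 9.85 and 10.11 at 6 h, against 5.87, 5.22 and 4.74 at 1.5 h (4.26, SE 0.32, adjusted p = 1.49e-06). Acod1, which makes itaconate in activated macrophages, was at 8.33, 9.21 and 9.78 at 6 h, against 6.40, 5.98 and 5.44 at 1.5 h (3.17, adjusted p = 2.58e-05). In both genes the samples of the 2 times did not overlap. Of the 23 measured genes of the Ch25h and cholesterol synthesis list, 2 rose and 2 fell (median -0.17), and 17 lay below 0. Gch1, needed for the cofactor of nitric oxide synthase, rose by 2.12 and Nos2, the inducible synthase, by 1.72. In the list of arginine, tryptophan and nitric oxide genes, 5 of 13 rose and 1 fell (median -0.08), and the rises numbered 3 without 6 h replicate 1 or 2 or 1.5 h replicate 2 or 3 or with arrays centred on their median, after quantile normalization or after cyclic loess.

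Death pathway genes rose: 10 of 19 measured genes of lytic death and caspases were higher at 6 h and 0 lower (median 0.47). Mlkl, which opens the membrane in necroptosis, was at 7.91, 7.93 and 7.96 at 6 h, against 5.99, 5.05 and 4.97 at 1.5 h (2.60, adjusted p = 2.73e-06). No 6 h sample fell in the 1.5 h range. Casp4 (1.76), Casp1 (1.15) and the pore gene Gsdmd (1.10), which act in pyroptosis, rose as well. Of 18 costimulation and checkpoint genes, 7 rose and 1 fell (median 0.26). Cd274, which encodes the checkpoint ligand PD-L1, was at 9.41, 9.72 and 9.90 at 6 h, against 6.53, 5.91 and 6.19 at 1.5 h (3.47, adjusted p = 3.70e-08). Cd69, an early activation marker of lymphocytes, rose by 2.88 and Cd86 by 1.14. In the endothelial list, 4 of 18 genes rose and 2 fell (median -0.02), and the cells in which they changed were not tested. Icam1 (1.32) and Vcam1 (1.00), whose products hold leukocytes, rose, while the anticoagulant gene Thbd fell (-0.79).

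Marker genes of leukocytes moved unevenly. Of 21 monocyte and macrophage genes, 6 rose and 0 fell (median 0.01). The risers were Ms4a4c (3.43), Fcgr4 (3.17), Fcgr1 (2.54), Plac8 (1.41), Ms4a6d (1.27) and Ms4a6c (0.84). Adgre1, which encodes a surface marker of macrophages, differed by -0.15 (adjusted p = 0.679). Ms4a6c was not called without 1.5 h replicate 2 or with values raised to a floor of 5 or without moderation of the variance (adjusted p 0.0511 to 0.0638), nor was Ms4a6d without moderation of the variance (adjusted p = 0.0573). Of 18 natural killer cell and granzyme genes, 5 rose and 0 fell (median 0.36). Gzmb, a granzyme, was at 6.91, 6.96 and 6.61 at 6 h, against 4.90, 4.97 and 4.82 at 1.5 h (1.93, adjusted p = 2.50e-07), without overlap. Klrk1, the receptor NKG2D, rose by 1.82, and Ncr1, a receptor that marks natural killer cells, differed by 0.43 (adjusted p = 0.182). The count of rises in this list was 3 without 1.5 h replicate 2. Of 20 neutrophil genes, 2 rose and 0 fell (median -0.37), with the neutrophil protein gene S100a9 at 9.53, 7.61 and 8.05 at 6 h and 10.09, 8.96 and 8.73 at 1.5 h (-0.86, adjusted p = 0.187). Its samples overlapped, and replicate 1 was the highest at both times. S100a9 was called lower without 6 h replicate 1 (-1.43, adjusted p = 0.0158) and without both Glycam1-high libraries (-1.01, adjusted p = 0.0145). In the lists of T cells (1 of 15), Langerhans and dendritic cells (2 of 17), B cells (0 of 18) and mast cells (0 of 14), few or none rose, and none fell. Over all genes, 5.47% rose and 7.8% fell.

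**Figure D4:**
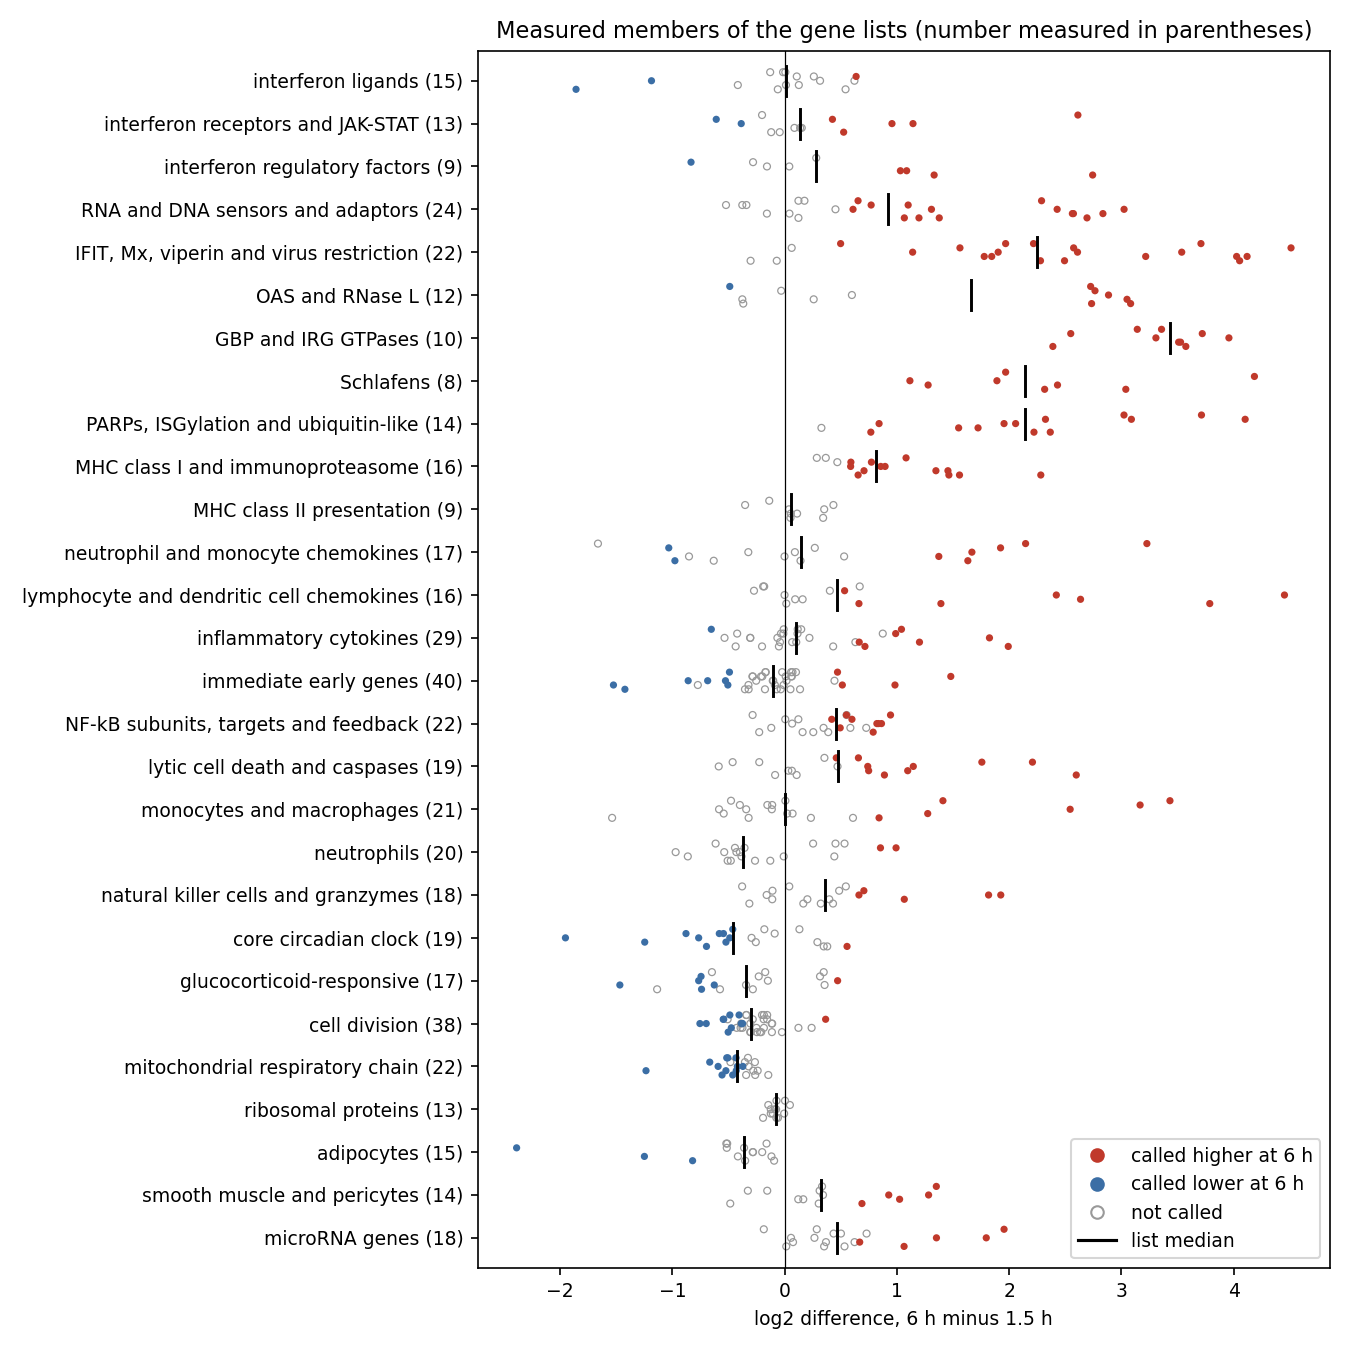
Log2 difference, 6 h minus 1.5 h (x axis), of every measured member of 28 gene lists (y axis, number measured in parentheses); red and blue points are members called higher and lower, open points were not called and black bars are list medians. All members of the GTPase and Schlafen lists are red, while the clock, cell division and mitochondrial lists hold mostly lower or uncalled members.

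Circadian clock genes fell: 10 of 19 measured genes were lower at 6 h and 1 rose (median -0.46). Nr1d1, the repressor REV-ERB alpha, was at 8.04, 7.89 and 8.27 at 6 h, against 10.60, 9.91 and 9.54 at 1.5 h. Dbp, a factor that the clock drives directly, was at 6.88, 6.80 and 6.77 at 6 h, against 8.17, 8.10 and 7.92 at 1.5 h. In both genes the 6 h samples lay below the 1.5 h samples, by 1.95 for Nr1d1 and 1.25 for Dbp (adjusted p = 5.89e-04 and 2.78e-06). Arntl, which encodes BMAL1 and peaks opposite to Nr1d1, was at 7.12, 7.29 and 7.17 at 6 h, against 6.70, 6.65 and 6.56 at 1.5 h, and rose by 0.56 (adjusted p = 0.00297). Per1 was at 8.10, 8.27 and 8.01 at 6 h, against 8.53, 8.89 and 9.27 at 1.5 h (-0.77, adjusted p = 0.0228), and its groups did not overlap. Per1 was not called without 6 h replicate 2 or 3 or 1.5 h replicate 2 or 3 or after cyclic loess, with values raised to a floor of 5 or without moderation of the variance (adjusted p 0.0522 to 0.0762). Nr1d2 (-0.88), Bhlhe40 (-0.70), Hlf (-0.58), Per2 (-0.55), Cry2 (-0.52), Tef (-0.49) and Per3 (-0.46) were the other falls. Bhlhe40 was not called without 6 h replicate 2, 1.5 h replicate 1 or 2 or both Glycam1-high libraries or after cyclic loess, with values raised to a floor of 5 or without moderation of the variance (adjusted p 0.0516 to 0.112), nor was Hlf without 6 h replicate 2 or 1.5 h replicate 2 (adjusted p 0.0654 to 0.0677), nor was Per2 without 1.5 h replicate 2 (adjusted p = 0.0685), nor was Cry2 without 6 h replicate 2 or 1.5 h replicate 2 or in a fit of only the 6 arrays (adjusted p 0.0524 to 0.0826), nor was Per3 without 6 h replicate 1, 2 or 3 or 1.5 h replicate 2 or 3 or in a fit of only the 6 arrays, with values raised to a floor of 5 or without moderation of the variance (adjusted p 0.0506 to 0.123). The count of falls was 4 without 1.5 h replicate 2 and 5 without 6 h replicate 2. The E-box was present in 29.4% of the clock promoters (5 of 17) and in 7.04% of all promoters, and the Per1 and Tef windows above each show it. Neither Nr1d1 nor Dbp holds it in the 250 bases before the gene start. The time after injection and the clock time of collection cannot be told apart.

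**Figure D5:**
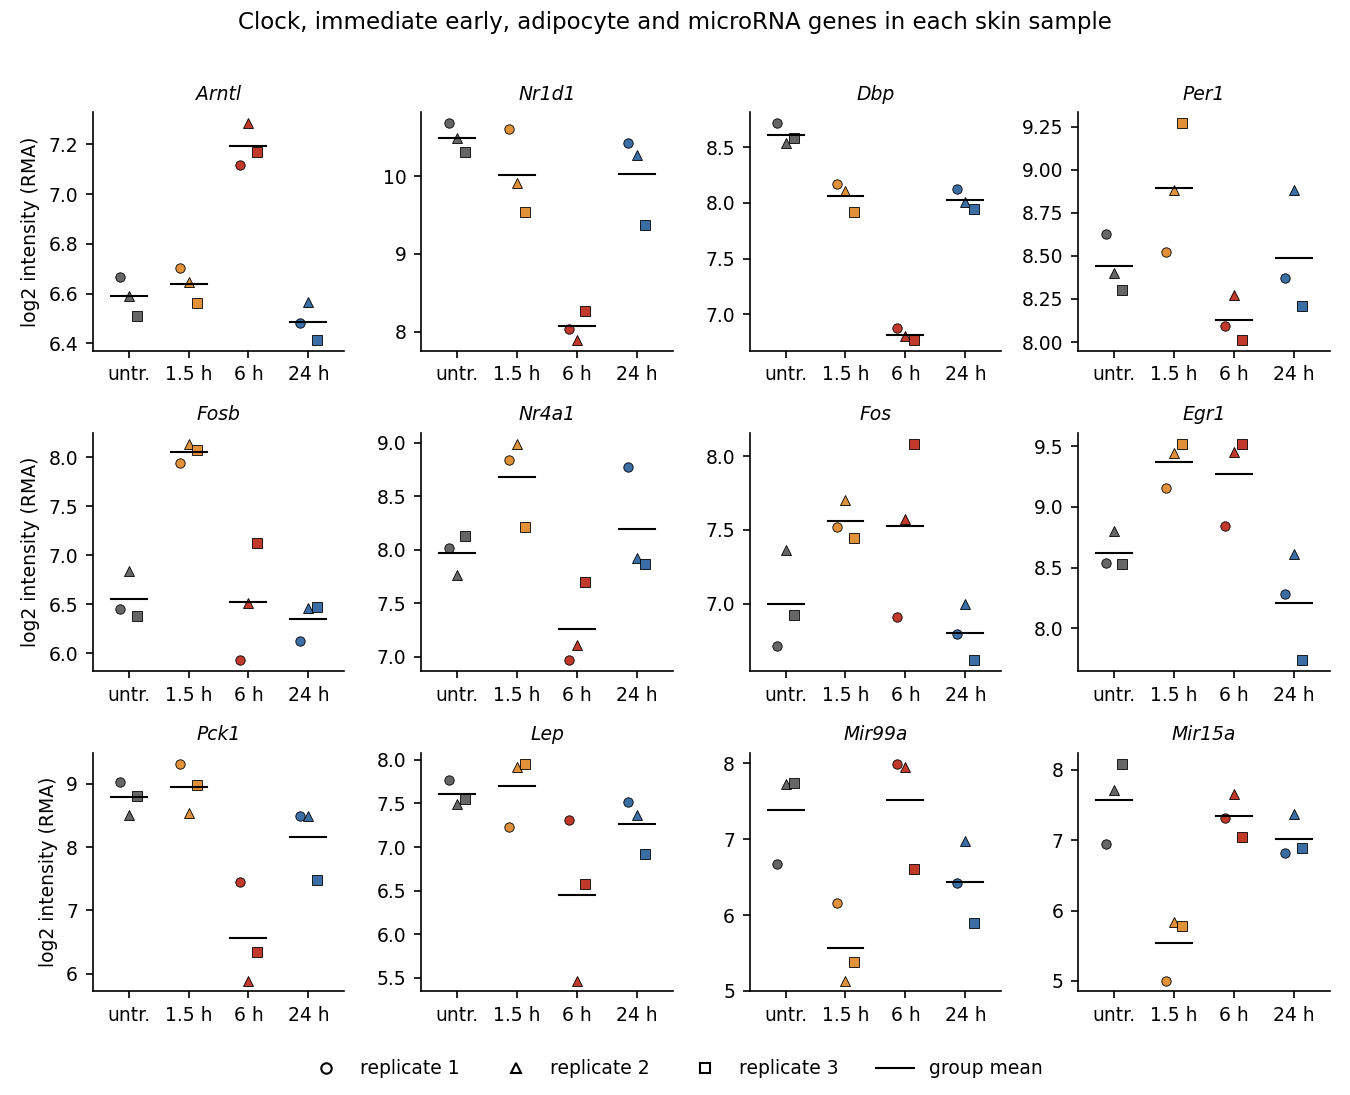
Log2 intensity (y axis) of clock, immediate early, adipocyte and microRNA genes in each sample, by untreated skin and time after injection (x axis); symbols are replicates 1 to 3 and lines group means. Nr1d1, Dbp and Pck1 are lowest at 6 h, Arntl is higher at 6 h than at 1.5 h, and Mir99a and Mir15a are lowest at 1.5 h.

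Pck1, which makes phosphoenolpyruvate for glyceride synthesis in fat, was at 7.45, 5.89 and 6.34 at 6 h, against 9.32, 8.55 and 8.98 at 1.5 h. Its fall was the largest among the called genes named here, -2.39 (SE 0.36, adjusted p = 9.64e-04), with no overlap, and untreated samples at 9.03, 8.51 and 8.82. Pdk4, the kinase that turns off pyruvate oxidation, was at 8.59, 8.45 and 7.90 at 6 h, against 9.77, 9.45 and 10.14 at 1.5 h (-1.47, adjusted p = 0.00717). Of 17 glucocorticoid-responsive genes, 5 fell and 1 rose (median -0.34), including Klf9 (-0.75), Fkbp5 (-0.74) and Tsc22d3, which encodes GILZ (-0.63). Of 15 adipocyte genes, 3 fell (median -0.36), where 7.8% of all genes fell. Besides Pck1 the fallen members were Lep, the hormone leptin (-1.25), and the insulin-dependent glucose transporter Slc2a4 (-0.82). Lep was not called without 6 h replicate 2 or 3 or 1.5 h replicate 2 or 3 or in a fit of only the 6 arrays, with values raised to a floor of 5, with a trended prior variance or without moderation of the variance (adjusted p 0.0623 to 0.114), nor was Slc2a4 without 6 h replicate 2, 1.5 h replicate 1 or 2 or both Glycam1-high libraries or with values raised to a floor of 5 or without moderation of the variance (adjusted p 0.0665 to 0.108). The lipid-droplet gene Plin1 differed by -0.52 (adjusted p = 0.213).

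Cell division genes stood lower, with 10 of 38 fallen and 1 risen (median -0.30). Anln, needed for the cleavage furrow, was at 6.48, 6.25 and 6.29 at 6 h, against 6.84, 7.34 and 7.11 at 1.5 h (-0.76, adjusted p = 0.00238), and Ube2c, a ubiquitin carrier of mitosis, fell by 0.70. Against untreated skin, 16 of the list were lower at 6 h, where 2.71% of all genes were. The falls since 1.5 h numbered 2 without 6 h replicate 2, 3 without 1.5 h replicate 2, 4 without 1.5 h replicate 1, 5 without 6 h replicate 3 or 1.5 h replicate 3, 6 without both Glycam1-high libraries and 18 with arrays centred on their median. Of 22 genes of the mitochondrial respiratory chain, 12 fell and 0 rose (median -0.43). Against untreated skin, 0 of the 22 were called lower at 6 h. The median of this list against untreated skin was 0.27 at 1.5 h and -0.12 at 6 h. Cox7a1, the subunit of heart and muscle, had the largest difference between the times (-1.24). Cox7a1 was not called without 6 h replicate 2, 1.5 h replicate 1 or 2 or both Glycam1-high libraries or with values raised to a floor of 5 or without moderation of the variance (adjusted p 0.0564 to 0.111). The count of falls was 1 without 6 h replicate 2 or both Glycam1-high libraries, 2 without 1.5 h replicate 1 or 2, 3 after cyclic loess, 4 without 6 h replicate 3 and 7 after quantile normalization. Muscle genes stood lower in some of the same libraries: Myl2 differed by -3.42 (adjusted p = 0.14), and the mean level of 27 skeletal muscle genes was 9.40 to 10.05 at 6 h and 9.74 to 11.03 at 1.5 h (median difference -0.53, 1 called lower). Without 1.5 h replicate 3 Myl2 was called lower (-5.12, adjusted p = 0.0286), and the falls of the muscle list numbered 0 without 6 h replicate 1 or 2, 1.5 h replicate 1 or 2 or both Glycam1-high libraries or after quantile normalization or after cyclic loess, 2 without 6 h replicate 3, 5 with arrays centred on their median and 7 without 1.5 h replicate 3. The part of muscle in the respiratory chain result was not tested. None of 13 ribosomal protein genes was called by limma (median -0.08), and 0 had an unadjusted p under 0.05.

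Other named falls belong to several cell types. Ednrb, an endothelin receptor, was at 7.75, 6.67 and 7.14 at 6 h, against 9.33, 8.92 and 8.99 at 1.5 h (-1.89, SE 0.23, adjusted p = 1.36e-04), without overlap. Cd209f, a C-type lectin related to DC-SIGN, was at 7.85, 6.32 and 7.03 at 6 h, against 8.70, 8.75 and 8.57 at 1.5 h (-1.60, adjusted p = 0.00886). The calcium-binding gene Efhd1 (-1.64), the steroid dehydrogenase gene Akr1c14 (-1.50), the retinol-binding gene Rbp7 (-1.46) and the secreted neuronal protein gene Lgi1 (-1.48) fell. So did the neuropeptide Y receptor gene Npy1r (-1.38), Car8 (-1.32), the tubulin-binding gene Tppp3 (-1.32), the prolyl isomerase gene Fkbp14 (-1.30) and Lrrn4cl (-1.41). Muscle genes among the named falls were myoglobin, Mb (-1.47), the actin-binding gene Abra (-1.45) and Ostn, which encodes osteocrin (-1.45). Cd209f was not called without moderation of the variance (adjusted p = 0.0552), nor was Lgi1 without moderation of the variance (adjusted p = 0.0528), nor was Akr1c14 without 6 h replicate 2 or 3 or 1.5 h replicate 1 or 2 or with values raised to a floor of 5, with a trended prior variance or without moderation of the variance (adjusted p 0.0512 to 0.0876), nor was Fkbp14 without 6 h replicate 2 or with values raised to a floor of 5 or without moderation of the variance (adjusted p 0.0506 to 0.0596), nor was Mb without 6 h replicate 1, 2 or 3, 1.5 h replicate 1 or 2 or both Glycam1-high libraries or after quantile normalization, after cyclic loess, with values raised to a floor of 5, with a trended prior variance or without moderation of the variance (adjusted p 0.052 to 0.212), nor was Abra without 6 h replicate 1 or 3, 1.5 h replicate 1 or 2 or both Glycam1-high libraries or with values raised to a floor of 5, with a trended prior variance or without moderation of the variance (adjusted p 0.0514 to 0.106), nor was Ostn without 6 h replicate 2, 1.5 h replicate 1 or 2 or both Glycam1-high libraries or with values raised to a floor of 5 or without moderation of the variance (adjusted p 0.0531 to 0.12). With the floor of 5 the difference of Ostn was -0.68. The interferon-inducible HIN-200 genes Ifi209 (4.25) and Ifi213 (3.85) complete the named rises.

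Structural genes of the skin were mostly uncalled, and over all genes 5.47% rose and 7.8% fell. Of 14 epidermal keratins, 1 rose and 0 fell (median -0.09), of 24 cornified envelope genes 1 rose and 1 fell (median -0.16), and of 19 fibroblast and collagen genes 0 rose and 1 fell (median -0.07). No hair keratin of 25 was called by limma (median 0.06), with 2 at an unadjusted p under 0.05. Smooth muscle and pericyte genes differed: 5 of 14 rose and 0 fell (median 0.32). Against untreated skin the median of this list was -0.51 at 1.5 h and -0.15 at 6 h. At 1.5 h, 4 of the list were called lower than in untreated skin, where 1.59% of all genes were. At 6 h, 1 was called higher and 1 lower than in untreated skin, so most of the list did not stand above it. Pdgfrb, the pericyte receptor, was at 8.53, 8.60 and 8.56 at 6 h, against 7.24, 7.03 and 7.36 at 1.5 h (1.35, adjusted p = 1.75e-04), and the untreated samples were at 7.76, 7.70 and 7.72. Myh11, the smooth muscle myosin, was at 8.55, 8.54 and 8.40 at 6 h, against 7.44, 7.01 and 7.19 at 1.5 h (1.28, adjusted p = 0.0039), without overlap. Of 18 simple and glandular epithelium genes, 2 fell and 0 rose (median -0.60). Krt19 was 1 of them (-1.97), and Krt18 (-2.49, adjusted p = 0.0559) was not called. Krt18 was called lower without 6 h replicate 1 (-3.84, adjusted p = 1.75e-05), without both Glycam1-high libraries (-3.40, adjusted p = 2.41e-06) and with arrays centred on their median (-2.62, adjusted p = 0.0299), as it was on genes above the median level only (-2.49, adjusted p = 0.0367) and with array quality weights (-2.63, adjusted p = 0.0359). Csn3 (-2.29, adjusted p = 0.0767) was likewise called without 6 h replicate 1 (-3.66, adjusted p = 2.29e-05) and without both Glycam1-high libraries (-3.34, adjusted p = 3.96e-05), with arrays centred on their median (-2.43, adjusted p = 0.043) and with array quality weights (-2.50, adjusted p = 0.0443). The list mean was 5.60 to 7.09 at 6 h and 6.54 to 7.29 at 1.5 h. Its falls numbered 0 without 6 h replicate 2 or 3 or 1.5 h replicate 1, 1 without 1.5 h replicate 2 or 3 or after cyclic loess, 8 with arrays centred on their median, 9 without both Glycam1-high libraries and 10 without 6 h replicate 1. Krt19 was not called without 6 h replicate 2 or 3 or 1.5 h replicate 1, 2 or 3 or in a fit of only the 6 arrays, after cyclic loess, with values raised to a floor of 5, with a trended prior variance or without moderation of the variance (adjusted p 0.0542 to 0.17).

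Probe sets of microRNA genes, which report the precursor and not the mature product, were higher at 6 h in 5 of 18 measured genes and lower in 0 (median 0.47). The mature sequences of those with a RefSeq entry are given with a relative that shares the seed, bases 2 to 8, in capitals (GRCm38.p6).
mmu-miR-15a-5p (chr14:61632075-61632096, minus strand): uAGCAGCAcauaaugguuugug
mmu-miR-16-5p (chr14:61631936-61631957, minus strand): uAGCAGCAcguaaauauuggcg
mmu-miR-99a-5p (chr16:77598940-77598961, plus strand): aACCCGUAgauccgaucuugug
mmu-miR-100-5p (chr9:41531437-41531458, plus strand): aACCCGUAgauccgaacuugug
mmu-miR-205-5p (chr1:193507503-193507524, minus strand): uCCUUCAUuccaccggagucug
mmu-miR-221-3p (chrX:19146307-19146329, minus strand): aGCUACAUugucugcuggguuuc
mmu-miR-222-3p (chrX:19146901-19146923, minus strand): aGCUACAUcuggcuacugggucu

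Mir15a was at 7.31, 7.66 and 7.05 at 6 h, against 5.01, 5.84 and 5.78 at 1.5 h (1.80, adjusted p = 0.00159). Its neighbour with the same seed, Mir16-1, differed by 0.50 (adjusted p = 0.188). Mir99a was at 7.99, 7.95 and 6.61 at 6 h, against 6.16, 5.14 and 5.38 at 1.5 h (1.95, adjusted p = 0.00897), and Mir100, with the same seed, differed by 0.35 (adjusted p = 0.169). For both Mir15a and Mir99a the 6 h samples lay above the 1.5 h samples. At 1.5 h the 3 samples of both genes lay below the untreated ones, which were at 6.94, 7.71 and 8.09 for Mir15a and 6.67, 7.72 and 7.74 for Mir99a. Mir205, of epithelial cells, rose by 1.06 and Mir221 by 0.67, while Mir222, with the seed of Mir221, differed by 0.06 (adjusted p = 0.859). Mir143, whose sequence is not printed, also rose (1.35, adjusted p = 3.96e-05), and its values are given under the flagged results. Mir99a was not called without 6 h replicate 2 or without moderation of the variance (adjusted p 0.0503 to 0.0567), nor was Mir205 without 6 h replicate 2 or 3, 1.5 h replicate 1 or 2 or both Glycam1-high libraries or without moderation of the variance (adjusted p 0.0537 to 0.0803), nor was Mir221 without 6 h replicate 2, 1.5 h replicate 1 or 2 or both Glycam1-high libraries or after quantile normalization, with values raised to a floor of 5 or without moderation of the variance (adjusted p 0.0531 to 0.102). In this list the rises numbered 2 without 6 h replicate 2, 3 without 1.5 h replicate 1, but 8 without 1.5 h replicate 3.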

How the data were processed

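RNA from 12 skin samples (3 each at 1.5, 6 and 24 h and 3 untreated) was measured on Affymetrix Mouse Gene 1.0 arrays, 1 array each. The authors deposited log2 intensities. Per the submitters' processing notes, these came from RMA run in Expression Console 1.1 of Affymetrix, so background correction and normalization between arrays had already been done. No sequencing depth applies, and the number of arrays limits the precision. The labels do not say that extractions were separate, so what the spread between these samples contains is not known. The p-values set each difference against that spread, estimated over all 12 arrays with moderation.

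Of 35556 probe sets, 23410 are in the platform annotation, of which 21789 name 1 gene symbol and 1621 several, and 12146 are unnamed here. The probe set with the highest mean stood for each of 999 genes with several, leaving 19938 genes and no filter on dim ones. Limma 3.58.1 in R 4.3.3 fitted 4 groups over all 12 arrays (lmFit and eBayes, no covariate), with Benjamini-Hochberg adjustment over all genes and a threshold of 0.05. With 3 against 3, an exact permutation test of a single gene cannot go below p = 0.1. Simulated data had independent noise in each gene and 200 changed genes. There the fit recovered 23.2% of those changed by 0.5, 88.5% by 1 and 99.7% by 2 on the log2 scale. A mean of 7.35 unchanged genes were called. The data had 2646 called genes, and differences between libraries shared by many genes were not simulated, so recovery in the data may differ.

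Named genes are the 20 largest rises and 20 largest falls whose samples do not overlap, without predicted genes, olfactory and vomeronasal receptors and small nucleolar RNAs, a few preset genes, and members of 60 gene lists by role (1086 of 1189 entries measured), each beside its list's count. The members and the lists were chosen with earlier results of these data known. Promoters (250 bases before to 50 after the gene start) and microRNAs came from RefSeq tables of GRCm38.p6, and 15563 genes matched a promoter. MicroRNAs on chromosome 18 were not used, and 16 of 18 listed microRNA genes matched a microRNA elsewhere. Motifs were searched in the bases before the start. Alternatives changed the samples, the scaling, the filter, the variance model and the choice of probe set.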

Additional observations from a re-analysis of the deposited data

Results flagged for a closer look

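Mmp13, Fmnl2, Mir143 and Rufy3 were called in opposite directions against untreated skin at the 2 times, lower at 1.5 h and higher at 6 h, and differed between the times. Both differences from untreated skin rest on the same 3 control samples. Mmp13 stood 2.35 above untreated skin at 6 h and -1.37 from it at 1.5 h, a difference between the times of 3.72. Fmnl2, a formin that builds actin filaments, was at 8.40, 8.43 and 8.39 at 6 h and 7.35, 7.07 and 7.02 at 1.5 h, against 7.73, 7.88 and 7.75 in untreated skin. The difference between 6 h and 1.5 h was 1.26 (limma, adjusted p = 1.33e-05), and none of the 3 groups overlapped. Mir143, whose product is abundant in smooth muscle, was at 5.93, 5.68 and 5.75 at 6 h and 4.58, 4.45 and 4.28 at 1.5 h, against 5.09, 5.37 and 4.99 in untreated skin. Its difference between the times was 1.35 (adjusted p = 3.96e-05). Rufy3 was at 7.07, 7.24 and 6.95 at 6 h and 6.08, 6.26 and 6.05 at 1.5 h, against 6.53, 6.62 and 6.59 in untreated skin, with a difference between the times of 0.96 (adjusted p = 5.78e-05). Fmnl2 and Rufy3 were chosen after their values were seen. With 3 samples a group, no test for a single outlying sample was made.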

How the results depend on the processing

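Counts are genes higher and lower at 6 h than at 1.5 h, 1090 and 1556 as reported, of which 311 and 84 changed at least 2-fold. The 2-fold counts under the alternatives were added after seeing the data. Leaving out each of the 6 libraries in turn gave 560 to 948 higher and 389 to 1358 lower genes, and 275 to 347 and 40 to 183 at 2-fold. Leaving out both Glycam1-high libraries gave 722 and 710. Median centring gave 760 and 3849 (181 lower at 2-fold, and 16.5% of calls higher against 41.2% as reported), and cyclic loess gave 1142 and 936 (55.0% higher). An ordinary linear model without moderation gave 716 and 827 (36 lower at 2-fold), and a floor of 5 left 37 lower genes at 2-fold. The other 7 alternatives, which include quantile normalization (948 and 1723) and a fit of only the 6 arrays (864 and 1067), kept all 4 counts within 1.5 times. No called gene named in the text changed direction under any alternative, and 120 of the 154 called kept their call under all but the 2-fold threshold. Genes that were not called changed sign as follows, and the cause was not tested. Fos was at -0.32 to 0.27 without single libraries, 0.25 without both Glycam1-high libraries, 0.0067 after quantile normalization and 0.044 after cyclic loess. Egr1 was at -0.22 to 0.11 without single libraries, 0.0014 without both Glycam1-high libraries and 0.037 after cyclic loess. Tlr7 was at -0.0049 to 0.24 without single libraries, -0.061 without both Glycam1-high libraries and -0.012 after centring. Irf3 was at -0.021 to 0.14, -0.038 and -0.093 under the same alternatives. Mir222 was at -0.12 to 0.22 without single libraries, -0.078 after centring, -0.14 after quantile normalization and -0.019 after cyclic loess, and Krt5 at 0.032 after cyclic loess. Without single libraries Glycam1 was at -2.47 to 2.18, Cd79b at -0.98 to 0.66, Adgre1 at -0.29 to 0.034 and Cxcl1 at -0.0091 to 0.34. The labels number the replicates, but same-numbered samples of the 2 times correlated at only 0.334, 0.0604 and 0.0333 in their deviations from the group means, so the numbers were not taken as a pairing. A fit with the replicate number as a block called 1082 higher and 1548 lower genes. Under that block Krt18 was called lower (-2.49, adjusted p = 0.0303), the 1 gene named in the text whose call changed.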

Other observations

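Sebaceous gland genes moved in both directions between 6 h and 1.5 h. Of 24 measured, 5 rose and 3 fell (limma, median 0.33). The steroid enzyme gene Hsd3b6 rose by 0.86 and the cytochrome gene Cyp2g1 by 1.05. Hsd3b6 was at 7.39, 7.38 and 7.38 at 6 h, against 6.76, 6.38 and 6.43 at 1.5 h, and the untreated samples were at 8.37, 8.10 and 8.24. The 1.5 h samples were the lowest of the 3 groups. The fatty acid desaturase genes Fads2 (-0.64) and Fads1 (-0.54) fell. Fads1 was not called without 6 h replicate 2 or 3 or 1.5 h replicate 1 or 3 or in a fit of only the 6 arrays, after quantile normalization, after cyclic loess, with values raised to a floor of 5 or without moderation of the variance (adjusted p 0.0624 to 0.185), nor was Fads2 without 6 h replicate 2 or 3 or 1.5 h replicate 1, 2 or 3 or in a fit of only the 6 arrays, after cyclic loess, with values raised to a floor of 5 or without moderation of the variance (adjusted p 0.0606 to 0.138). The rises numbered 2 without 6 h replicate 2 or 1.5 h replicate 2 and 8 without 1.5 h replicate 1.

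Of 17 complement genes, 4 rose and 2 fell, led by factor B, Cfb (1.67), with the C5a receptor gene C5ar1 lower (-1.05). The rises numbered 2 without 6 h replicate 2 or 1.5 h replicate 2. Among 17 prostaglandin and lipoxygenase genes, Ptgs2 rose and 4 fell, of which the prostacyclin synthase gene Ptgis had the largest difference (-0.95). The falls numbered 2 without 6 h replicate 2 or 1.5 h replicate 2. Among Fc receptors and C-type lectins, 4 of 19 rose and 0 fell (median 0.14), with the inhibitory receptor gene Lilrb4a higher (1.57). In stress lists, where 5.47% of all genes rose and 7.8% fell, 1 rose and 3 fell of 17 hypoxia and glycolysis genes, 1 and 3 of 19 heat shock and unfolded protein genes, 0 and 2 of 14 oxidative stress genes, and 0 and 3 of 12 p53 targets. Of 16 metallothionein and iron genes, 3 rose and 3 fell (median -0.25).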
